A study of Ipomoea batatas with 18 samples.

Results

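Roots of the high-starch sweetpotato (Ipomoea batatas) cultivar Chuanshu 218 were compared with those of the low-starch cultivar 15-94 at an age of 65 days, with 3 libraries each. The comparison covered unigenes, the transcripts of a de novo assembly, that reached 1 FPKM (fragments per unit of unigene length and of mapped fragments) in at least 3 of these 6 libraries. This held for 26700 of the 46840 unigenes in the table. No treatment, mutation or transgene is named. Roots of each cultivar stood in greenhouse pots in natural light, with 18 pots per cultivar. Since the plant behind each library is not labelled, the spread that the p-values measure may be partly technical. The series also holds 3 libraries of each cultivar at 30 days and 3 at 100 days. They show how the 65-day differences looked at other ages. They also enter the main fit of all 18 libraries, and so its estimate of the spread, the set of unigenes tested and the relative depth. Starch class and cultivar coincide, so a difference between these groups cannot be assigned to starch.

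Sweetpotato storage roots thicken by adding parenchyma cells that fill with starch. Starch is built in amyloplasts from sugar delivered as sucrose, through ADP-glucose pyrophosphorylase, starch synthases and branching enzymes, and the same roots store protein, chiefly sporamin and beta-amylase. Which unigenes encode these proteins is not known here. The files do not pair unigene IDs with gene names, and 0 of the 46840 IDs matched the gene table of assembly IBA_r1.0. No pathway list and no root marker could therefore be read, the root label could not be checked against markers, and only 4 unigenes are named, 2 in each direction. The RNA is from whole roots, so fewer cells of a type and less RNA per cell cannot be told apart.

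High-starch libraries had 30023, 36939 and 31460 unigenes above 0 FPKM (replicates 1 to 3), against 26788, 30477 and 31939 in the low-starch libraries. The groups overlapped, and the difference was within their spread (exact permutation, two-sided p = 0.5, n = 3 each, where the smallest possible p is 0.1). Read numbers are unknown, but low FPKM values are multiples of what 1 read is worth, and the relative size of that step, on a log2 scale with the smallest of the 18 libraries at 0, was 0.86, 0.08 and 0.68 in the high-starch libraries and 1.09, 0.80 and 0.71 in the low-starch ones. High-starch replicate 2 therefore stood apart as the library in which 1 read was worth least, a sign of greater depth if the values were not scaled further. The other 5 libraries lay within 0.68 to 1.09. Among the 26700 unigenes, those listed at 0 numbered 1551, 933 and 1148 in the high-starch libraries and 2788, 1639 and 1602 in the low-starch ones. These counts are a description only, since more of the 26700 qualified through the high-starch libraries alone (1294) than through the low-starch libraries alone (727).

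High-starch replicate 1 stood apart from its own group in its profile. Low-starch replicate 3 stood apart only through a set of unigenes described below, not in its correlation with its group. The main counts are given with and without these 2 libraries. The profile of high-starch replicate 1, on log2(FPKM + 1) over the 26700 unigenes, had r = 0.783 with high-starch replicate 2 and r = 0.782 with low-starch replicate 1, so it was as close to a library of the other cultivar as to one of its own. High-starch replicates 2 and 3 had r = 0.898. Low-starch replicate 1 had 0.867 with low-starch replicate 2 and 0.885 with low-starch replicate 3, and low-starch replicates 2 and 3 had 0.854. High-starch replicate 2 was also nearer to low-starch replicate 2 (0.800) than to high-starch replicate 1. These correlations are across unigenes, which are not independent replicates, and describe the profiles.

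**Figure D1:**
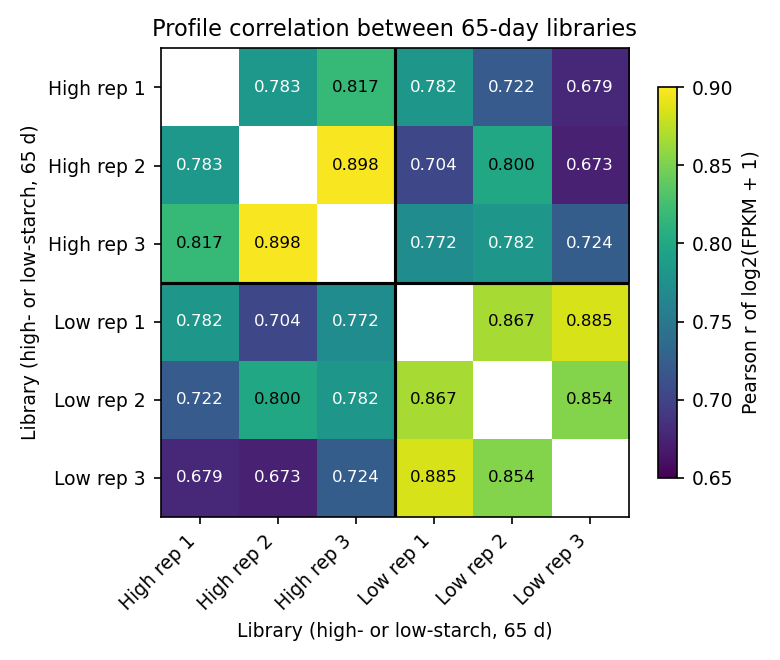
Pearson correlation of log2(FPKM + 1) over 26700 unigenes between the 6 libraries of 65 days, high-starch libraries first on both axes, with the colour scale from low (dark) to high (light) and the value in each cell. The 3 low-starch pairs lie between 0.854 and 0.885, while high-starch replicate 1 has 0.783 and 0.817 with its own group and 0.782 with low-starch replicate 1.

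In high-starch replicate 1, 776 unigenes of at least 10 FPKM stood at least 4-fold (on FPKM + 1) above both other high-starch libraries, against 57 and 76 such unigenes in replicates 2 and 3. They held 10.1% of the FPKM of that library. By the same measure against high-starch replicates 2 and 3, 64.8% of the 776 were also high in high-starch 30 d replicate 1, where 4.99% of all 26700 were, and 51.4% in low-starch 30 d replicate 1, where 7.63% of all were. In high-starch 30 d replicates 2 and 3 the shares were 2.84% and 4.12%. The other low-starch libraries ran from 11.6% in 65 d replicate 2 to 42.7% in 100 d replicate 2, where 2.63% and 5.02% of all were. The high-starch 100 d libraries ran from 8.76% in replicate 3 to 23.2% in replicate 2, where 0.719% and 1.98% of all were. Many of the unigenes that set this library apart were thus also high in libraries of both cultivars and of another age. Of the 776, 28 (3.61%) were called higher and 17 (2.19%) lower in the cultivar comparison described next, in which 6.61% and 4.56% of the 26700 were. The 776 were chosen for differing within the high-starch group, which makes a call less likely, so these shares are a description only.

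In low-starch replicate 3, 279 unigenes stood at least 4-fold above both other low-starch libraries, against 25 and 90 in replicates 1 and 2, and they held 26.5% of its FPKM. Of the 279, 52.0% were also high, by the same measure, in low-starch 100 d replicate 3, where 0.742% of all 26700 were. In the remaining libraries outside its group the share ran from 1.08% in low-starch 100 d replicate 2 to 31.5% in high-starch 100 d replicate 2. Of all 26700, 0.727% and 4.7% were high there. The 10 most abundant unigenes took 25.8% of the FPKM of low-starch replicate 3, against 8.29% to 11.4% in the other 5 libraries. Of the 279, which were chosen for being high in a low-starch library, 1 (0.358%) was called higher and 22 (7.89%) were called lower in high-starch roots.

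The question at 65 days was which root transcripts separate the cultivars. Of the 26700 unigenes, 1765 rose and 1217 fell in high-starch relative to low-starch roots. These calls are at a limma p under 0.05 after Benjamini-Hochberg adjustment and a difference of at least 2-fold on log2(FPKM + 1), with 1 fit of all 18 libraries and adjustment over the 32529 unigenes at 1 FPKM in at least 3 of them. Over those 32529, 6.19% were called higher and 4.03% lower, and of the 26700 it was 6.61% and 4.56%. The median size of the called differences was 2.18 (log2) for the higher and 2.37 for the lower unigenes. At least 8-fold differences were reached by 348 higher and 336 lower unigenes, at least 32-fold by 48 and 41, and at least 64-fold by 13 and 12.

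Most of the unigenes did not differ that far. The middle 90% of the 26700 differences ran from -1.74 to 1.98 (log2), with a median of 0.06. All 3 high-starch libraries lay above all 3 low-starch ones for 3811 unigenes, and below them for 2881. Over the 32529 tested, this held for 14.4% and 9.91%. Of the called unigenes, 1748 of the 1765 higher and 1202 of the 1217 lower showed such a separation. A call from the same libraries favours it, so these counts are a description only. The remaining 17 and 15 were called although the libraries of the 2 cultivars overlapped.

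Many of the called unigenes entered through 1 cultivar. Of the 26700, 16898 were at 1 FPKM or more in all 6 libraries, 1294 only in the 3 high-starch libraries and 727 only in the 3 low-starch ones. Those 1294 and 727 passed the limit of 1 FPKM through the cultivar in which they are high, so a difference in that direction is built into the choice. Among the called unigenes, 404 higher and 390 lower were at 1 FPKM or more in all 6 libraries. At the edge of the choice, unigenes at 1 FPKM in exactly 3 libraries (4037) had a median level of 1.62 FPKM, and those in exactly 2 libraries (3877), which were left out, had 0.842 FPKM.

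Without low-starch replicate 3 the calls were 1185 higher, of which 1144 were among the 1765, and 747 lower, of which 736 were among the 1217. Without high-starch replicate 1 they were 1535 and 1166, of which 1353 and 965 were shared. With both left out, a setting chosen after seeing the data, 1060 and 757 were called, of which 968 and 680 were shared. A fit of the 6 libraries of 65 days alone called 1382 and 950, which is 5.18% and 3.56% of the 26700.

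**Figure D2:**
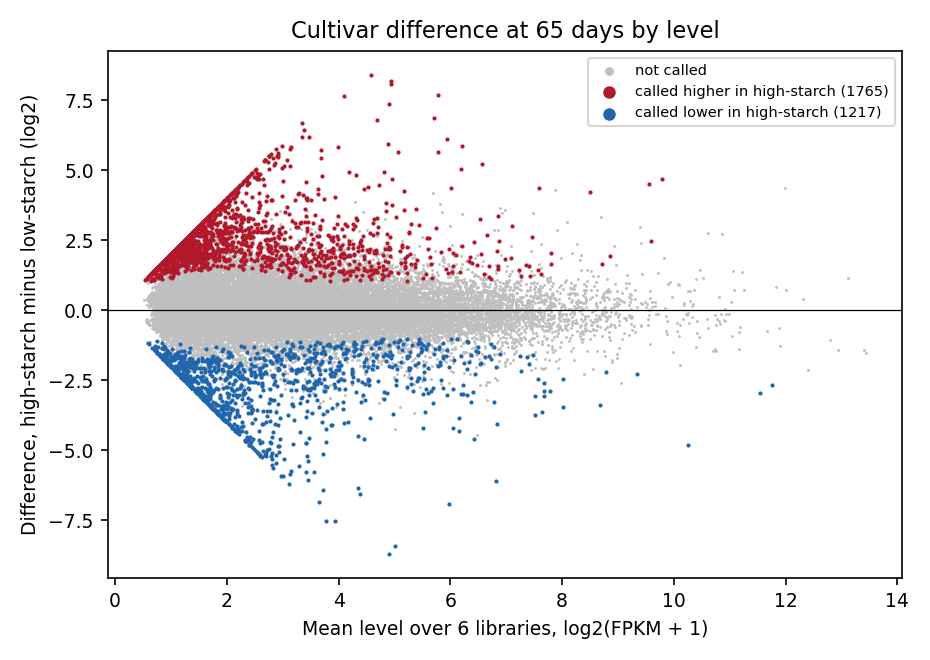
Difference between the cultivars at 65 days (high-starch minus low-starch, log2) against the mean level over the 6 libraries (log2(FPKM + 1)), with 1 point per unigene, for 26700 unigenes. The 1765 unigenes called higher in high-starch roots lie above 0 and the 1217 called lower lie below it, and the straight left edges hold unigenes at or near 0 in 1 cultivar.

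The called unigenes made up a small part of the root message pool. Those called higher held 5.72%, 7.31% and 5.89% of the FPKM of the high-starch libraries and 0.819%, 1.03% and 0.46% of that of the low-starch libraries. Those called lower held 1.36%, 0.923% and 1.04% of the FPKM of the high-starch libraries and 8.68%, 6.04% and 7.48% of that of the low-starch libraries. These shares describe unigenes chosen for their difference in the same libraries. The median level in the cultivar where they were higher was 7.75 FPKM for the higher and 12.6 FPKM for the lower unigenes, and 7 higher and 9 lower unigenes averaged 1000 FPKM or more there.

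The unigene with the largest difference among those higher in high-starch roots was Iba_33414. It had 583.9, 352.8 and 419.7 FPKM in the high-starch libraries, against 0.55, 0 and 0.42 FPKM in the low-starch ones. Every high-starch library was far above every low-starch one, and the log2 difference was 8.41 (SE 0.46, limma adjusted p = 1.34e-08). It was also higher at the other ages, with log2 differences of 7.57 at 30 days and 6.46 at 100 days (SE 0.46 each, limma adjusted p = 5.14e-08 and 1.84e-07). In high-starch roots its level was 346.3 ± 274.2 FPKM at 30 days, 452.1 ± 118.9 FPKM at 65 days and 120.2 ± 38.5 FPKM at 100 days (SD, n = 3 each).

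The unigene with the largest difference in the other direction was Iba_24790. It had 1.51, 0 and 0.24 FPKM in the high-starch libraries, against 522.2, 334.7 and 1271 FPKM in the low-starch ones. The groups did not overlap, low-starch replicate 3 was the highest of the 6, and the log2 difference was -8.70 (SE 0.46, limma adjusted p = 1.31e-08). At 30 and at 100 days the log2 difference was -8.21 (SE 0.46, limma adjusted p = 2.84e-08 and 3.44e-08). For Iba_33414 and Iba_24790 the call held in each of the 19 other settings tried.

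Among the most abundant called unigenes, the highest level in high-starch roots belonged to Iba_37898. It had 5811, 5702 and 2675 FPKM in the high-starch libraries, against 242.9, 516.2 and 41.9 FPKM in the low-starch ones. The groups did not overlap, and the log2 difference was 4.67 (SE 1.28, limma adjusted p = 0.025). The call was lost without high-starch replicate 1 (limma adjusted p = 0.066) or 2 (0.081), and without low-starch replicate 1 (0.053) or 3 (0.15), and with both libraries that stood apart left out (0.23). In low-starch replicate 3 it was lowest of the 6, and without that library the log2 difference was 3.65.

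At 30 days Iba_37898 had 194.8, 19.3 and 2530 FPKM in high-starch roots, against 22.3, 143.3 and 148.2 FPKM in low-starch roots. High-starch replicate 3 was far above the others, and the cultivars overlapped (log2 difference 1.44, SE 1.28, limma adjusted p = 0.58). At 100 days it had 8083, 3532 and 12381 FPKM in high-starch roots, against 1242, 1208 and 365.1 FPKM in low-starch roots. There the groups did not overlap, but the difference did not pass (log2 difference 3.11, SE 1.28, limma adjusted p = 0.14).

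The highest level in low-starch roots among the called unigenes belonged to Iba_26813. It had 2586, 1186 and 844.5 FPKM in the high-starch libraries, against 13848, 4826 and 9783 FPKM in the low-starch ones. The groups did not overlap, and the log2 difference was -2.66 (SE 0.73, limma adjusted p = 0.026). The call was lost without high-starch replicate 2 (limma adjusted p = 0.086) or 3 (0.11), without low-starch replicate 1 (0.098) or 3 (0.087), with both libraries that stood apart left out (0.055), with no filter on low values (0.055) and in the fit of the 6 libraries alone (0.11, or 0.032 there with a replicate block). Its log2 difference was -0.94 at 30 days and -1.38 at 100 days (SE 0.73 each, limma adjusted p = 0.52 and 0.26).

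**Figure D3:**
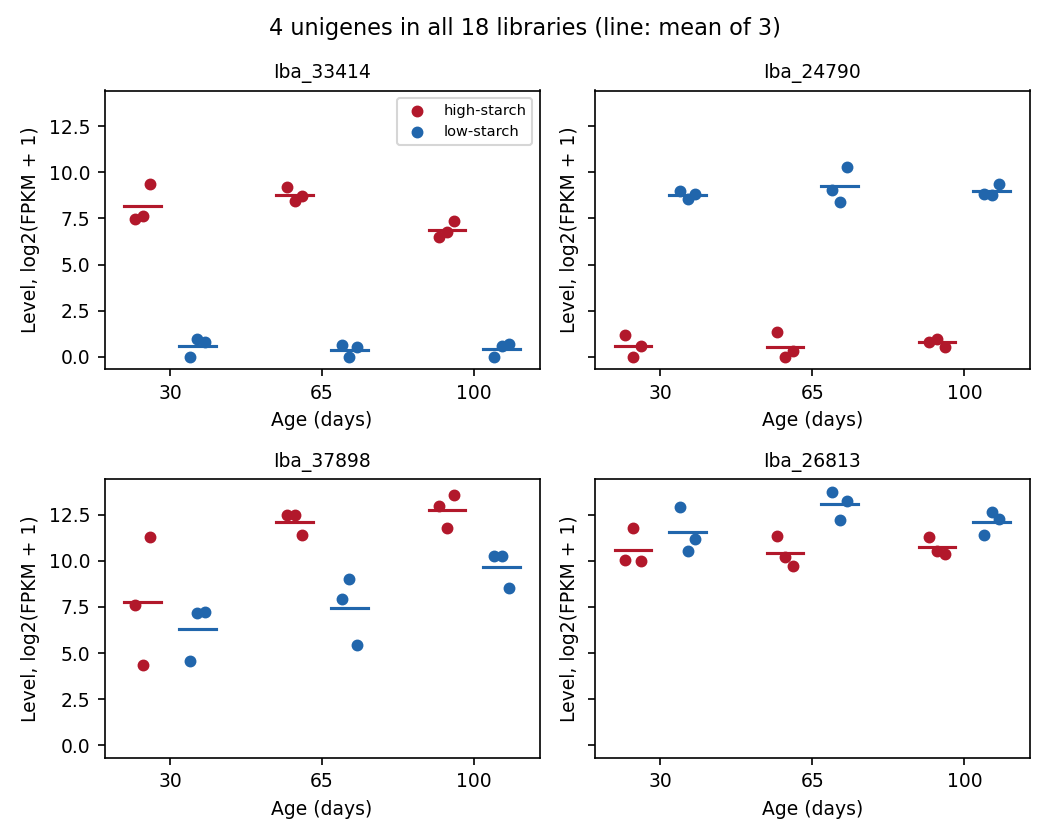
Level (log2(FPKM + 1)) of the 4 named unigenes in all 18 libraries by age in days, high-starch (red) left of low-starch (blue), with 1 point per library and a line at the mean of 3. Iba_33414 and Iba_24790 are separated at all 3 ages, while Iba_37898 and Iba_26813 overlap at 30 days.

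The unigenes next in rank resembled the leaders. Of called unigenes whose libraries did not overlap and that averaged at least 10 FPKM in the higher cultivar, 734 were higher and 684 lower. The 10 higher ones with the largest differences ran from 6.45 to 8.41 (log2), with means of 108.0 to 889.3 FPKM in high-starch and 0 to 4.28 FPKM in low-starch roots. The 10 lower ones ran from -8.70 to -6.21, with means of 0 to 5.14 FPKM in high-starch and 79.3 to 770.3 FPKM in low-starch roots. All 10 lower ones were separated the same way at 30 and at 100 days, and of the 10 higher ones 7 were at 30 days and all 10 at 100 days. Over the 32529 tested, separation above held for 12.7% at 30 days and 22% at 100 days, and separation below for 7.31% and 13.7%. Of all 1765 higher calls 65.5% and 79.2% were separated, and of all 1217 lower calls 66.4% and 80.0%. All 20 were also called in the fit of the 6 libraries alone.

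Ranked by level instead of difference, the 10 leading higher unigenes averaged 750.0 to 4729 FPKM in high-starch roots and 3.4 to 333.0 FPKM in low-starch roots, with log2 differences of 1.66 to 7.69. The third of them had 1896, 1522 and 2083 FPKM in the high-starch libraries, against 442.9, 298.9 and 257.3 FPKM in the low-starch ones. Its libraries lay close together within each cultivar and did not overlap between them (log2 difference 2.48, SE 0.43, limma adjusted p = 0.00093), and the difference was 0.99 at 30 days and 0.79 at 100 days. Its SE was the smallest of the 10, and the others had 0.50 to 1.40. The sixth had 91.7, 2378 and 808.1 FPKM in the high-starch libraries, against 1.48, 39.9 and 8.24 FPKM in the low-starch ones (log2 difference 5.85, SE 1.40, limma adjusted p = 0.011). Several of the 10 lie close to each other in ID number. Of these 10, 3 were separated the same way at 30 days and 8 at 100 days, but only 1 was called at each. Over the 32529 tested, 12.7% and 22% were separated this way, and 4.25% and 5.21% were called higher. The fit of the 6 libraries of 65 days called 8 of the 10.

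The 10 leading lower unigenes by level averaged 5.14 to 1539 FPKM in high-starch roots and 770.3 to 9486 FPKM in low-starch roots, with log2 differences of -6.92 to -2.19. The third of them had 1344, 67.3 and 131.9 FPKM in the high-starch libraries, against 15863, 2730 and 6208 FPKM in the low-starch ones. High-starch replicate 1 was well above the other high-starch libraries, yet still below every low-starch one (log2 difference -4.81, SE 0.98, limma adjusted p = 0.0036). The sixth had 22.2, 9.27 and 9.62 FPKM in the high-starch libraries, against 1128, 2255 and 311.1 FPKM in the low-starch ones (log2 difference -6.09, SE 0.73, limma adjusted p = 2.7e-05), and its difference was -4.88 at 30 days and -8.11 at 100 days. Of these 10, 7 were separated the same way at 30 days and 8 at 100 days, and 5 were called at each. Over the 32529 tested, 7.31% and 13.7% were separated this way, and 2.9% and 3.93% were called lower. The fit of the 6 libraries of 65 days called 7 of the 10.

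Few of the most abundant unigenes of the 65-day roots were called, as few of all unigenes were. Of the 10 with the highest mean over the 6 libraries, 0 were called (limma) and 2 were separated, 1 in each direction. Of the top 25, 1 was called higher and 3 lower, and of the top 100, 4 were higher and 5 lower, where 6.61% and 4.56% of all 26700 were. Ranked and called without low-starch replicate 3, the top 100 held 1 higher and 1 lower call, without high-starch replicate 1 they held 3 and 5, and without both 3 and 4. Without high-starch replicate 1 the top 10 held 1 lower call, and 9 of the 10 were the same unigenes. Without low-starch replicate 3, 8 of the top 10 were the same unigenes. The most abundant of all had 9849, 3694 and 7804 FPKM in the high-starch libraries, against 9271, 8946 and 78616 FPKM in the low-starch ones. Low-starch replicate 3 was 7.98 times the highest of the other 5 libraries, and the groups overlapped (log2 difference -1.51, SE 1.17, limma adjusted p = 0.50). For 5 of the top 10 unigenes low-starch replicate 3 was the highest library.

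The seventh in abundance had 26207, 19403 and 12338 FPKM in the high-starch libraries, against 991.8, 2653 and 267.9 FPKM in the low-starch ones. It was separated but was not called (log2 difference 4.37, SE 1.43, limma adjusted p = 0.062), and its ID number lies within 25 of that of Iba_37898. Within 25 ID numbers either side of Iba_37898, a window chosen after seeing the data, were 35 other unigenes of the 26700, of which 6 were called higher, 1 lower, and 10 averaged 1000 FPKM or more in a cultivar. The same window held 8 higher and 1 lower of 33 around Iba_33414, 4 and 3 of 40 around Iba_24790, and 0 and 3 of 22 around Iba_26813, where 6.61% and 4.56% of all 26700 were called. The 35 together with Iba_37898 held 4.5% to 9.35% of the FPKM of the high-starch libraries and 0.474% to 5.54% of that of the low-starch ones, so the cultivars overlapped in this sum. The called differences in the window ran from -6.09 to 8.09 (log2), and the lower one is the sixth lower unigene by level described above. The sources used here do not say what the order of the ID numbers stands for.

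The ID order was also read over all calls, as a description without a test. When a unigene was called higher and the next ID number was also among the 26700 (1190 pairs), that next unigene was called higher in 12.9% and lower in 6.72% of pairs. When a unigene was called lower (817 pairs), the next was called higher in 11.0% and lower in 9.67%. Over all 17734 neighbouring pairs the next was called higher in 6.55% and lower in 4.66%. At a distance of 100 ID numbers, the shares after a higher call were 7.74% and 4.47%, and after a lower call 7.65% and 5.45%. Neighbours thus included pairs of opposite direction as well as of the same direction. The log2 differences of neighbours had r = 0.099 across all 17734 pairs.

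The direction of the calls varied with level. Among unigenes with a mean under 5 FPKM over the 6 libraries, 985 were called higher and 497 lower, 66.5% higher. In the band of 5 to 20 FPKM 499 were higher and 434 lower (53.5%), in that of 20 to 50 FPKM 185 and 165 (52.9%), and at 50 FPKM and over 96 and 121 (44.2%). Calls became rarer with level, from 14.7% of the unigenes under 5 FPKM to 6.57% of those at 50 FPKM and over. This is a description only, since the choice at 1 FPKM favours a call for unigenes that passed through 1 cultivar alone. With a filter at 5 FPKM fewer unigenes were tested. Calls then made up 6.28% of all unigenes under 5 FPKM, tested or not. At 5 to 20 FPKM they made up 10.4%, and at 50 FPKM and over 6.41%. With any single 65-day library left out, the share of higher calls under 5 FPKM was 64.8% to 68.9%. It was 71.2% without both libraries that stood apart, 59.7% with a filter at 5 FPKM and 57.8% under quantile normalization. The choice at 1 FPKM treats the cultivars alike and admits unigenes through either one alone. Through the high-starch libraries alone 1294 unigenes passed, and through the low-starch libraries alone 727. Among calls at 1 FPKM or more in all 6 libraries, 404 were higher and 390 lower. How much of the excess under 5 FPKM comes from unigenes that passed through 1 cultivar alone was not tested. Above 5 FPKM no direction was stable. In the band of 5 to 20 FPKM the share was 48.7% under quantile normalization, and in that of 20 to 50 FPKM it was 49.7% there, 46.8% without high-starch replicate 1, 62.3% without low-starch replicate 1 and 45.7% without both libraries that stood apart. At 50 FPKM and over, 33.6% of calls were higher without high-starch replicate 1, 52.6% without high-starch replicate 2, 55.3% without low-starch replicate 1 and 56.1% with relative depth as a covariate. The value of 1 read averaged 0.54 ± 0.41 in high-starch roots and 0.87 ± 0.20 in low-starch roots (log2, SD, n = 3 each; exact permutation, two-sided p = 0.4), and its part in the direction under 5 FPKM was tested only through that covariate, with which 65.6% were higher. Within the same-numbered pairs it was lower in the high-starch library in 3 of 3 (exact permutation within pairs, two-sided p = 0.25, the smallest possible).

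**Figure D4:**
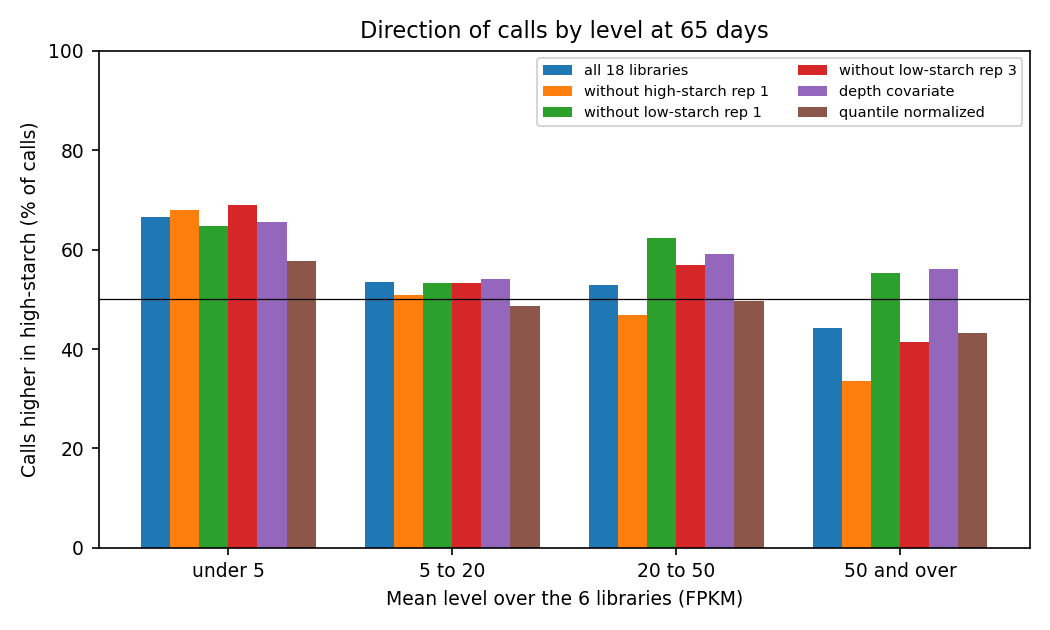
Share of calls at 65 days that were higher in high-starch roots (% of calls, bars from 0), by mean level over the 6 libraries (FPKM), for the fit of all 18 libraries and 5 other settings. Under 5 FPKM the share lies between 57.8% and 68.9% in these settings, while at 50 FPKM and over it runs from 33.6% without high-starch replicate 1 to 56.1% with depth as a covariate.

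For 664 unigenes, every high-starch library of 65 days reached 1 FPKM while every low-starch library stood at 0, with a median level of 3.89 FPKM and a highest mean of 108.0 FPKM. The opposite listing held for 363 unigenes, with a median of 5.41 FPKM and a highest mean of 207.0 FPKM. Asking for 5 FPKM instead left 103 and 91. Without low-starch replicate 3 the first listing held 813 unigenes, and without high-starch replicate 1 the second held 436. Of the 664, 627 were called higher, and of the 363, 344 were called lower, which the choice favours. A listed 0 is not proof of absence, since the depth is unknown.

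The listings were also read in libraries of the other ages, as a description only. Counts over all 9 libraries of a cultivar include those of 65 days, which meet the listing by choice. No matching share over all compared unigenes was taken. At 30 and 100 days, 2052 to 4663 of the compared unigenes were at 0 in a low-starch library. In a high-starch library of these ages 998 to 2327 were. Of the 664 unigenes, 430 (64.8%) were at 0 in all 9 low-starch libraries of the series, and 91 reached 1 FPKM in at least 1 low-starch library of 30 or 100 days. Of the 363, 246 (67.8%) were at 0 in all 9 high-starch libraries, and 10 reached 1 FPKM in at least 1 high-starch library of 30 or 100 days. Both sides of the listing, at 1 FPKM or more in all 9 libraries of the cultivar of the listing and at 0 in all 9 of the other, held for 190 (28.6%) of the 664 and 107 (29.5%) of the 363. As an example, the ninth-ranked higher unigene by difference had 146.6, 61.0 and 117.4 FPKM in the high-starch replicates and 0 in each low-starch one. The third-ranked lower unigene had 0 in each high-starch replicate, against 312.9, 94.2 and 213.5 FPKM in the low-starch ones.

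The 65-day differences were mostly seen at the other ages as well, in libraries that the 65-day difference does not use. Of the 1765 unigenes higher at 65 days, 98.1% had a higher mean in high-starch roots at 30 days and 98.0% at 100 days, where 58.1% and 57.0% of all 26700 unigenes did. Of the 1217 lower ones, 94.4% had a lower mean at 30 days and 96.6% at 100 days, where 41.8% and 43.0% of all did. All 3 high-starch libraries lay above all 3 low-starch ones for 1156 of the 1765 at 30 days and 1398 at 100 days, 65.5% and 79.2%. Over the 32529 tested, such a separation held for 12.7% at 30 days and 22% at 100 days. For the 1217 lower unigenes the separation below held for 808 (66.4%) at 30 days and 973 (80.0%) at 100 days, and over the 32529 for 7.31% and 13.7%. The limma call itself was met in the same direction by 893 of the 1765 at 30 days and 911 at 100 days, where 4.25% and 5.21% of the 32529 were called higher. Of the 1217 it was met by 616 and 747, where 2.9% and 3.93% were called lower.

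The differences were smaller at the ages that did not choose the unigenes. The median difference of the 1765 was 1.64 (log2) at 30 days, 2.18 at 65 days and 1.62 at 100 days, and that of the 1217, in the lower direction, was 1.75, 2.37 and 1.98. Among all 26700 unigenes the median difference, with its sign, was 0.16 at 30 days and 0.15 at 100 days. With the calls of the fit of the 6 libraries alone, which shares no variance estimate with other ages, 67.7% of the 1382 higher and 68.4% of the 950 lower unigenes were separated the same way at 30 days, and 81.8% and 82.2% at 100 days. Among the calls made without high-starch replicate 1, 70.1% of the higher and 69.0% of the lower were separated the same way at 30 days, and 81.5% and 81.1% at 100 days. Among those made without low-starch replicate 3 the shares were 78.6% and 79.0% at 30 days and 87.2% and 88.8% at 100 days.

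**Figure D5:**
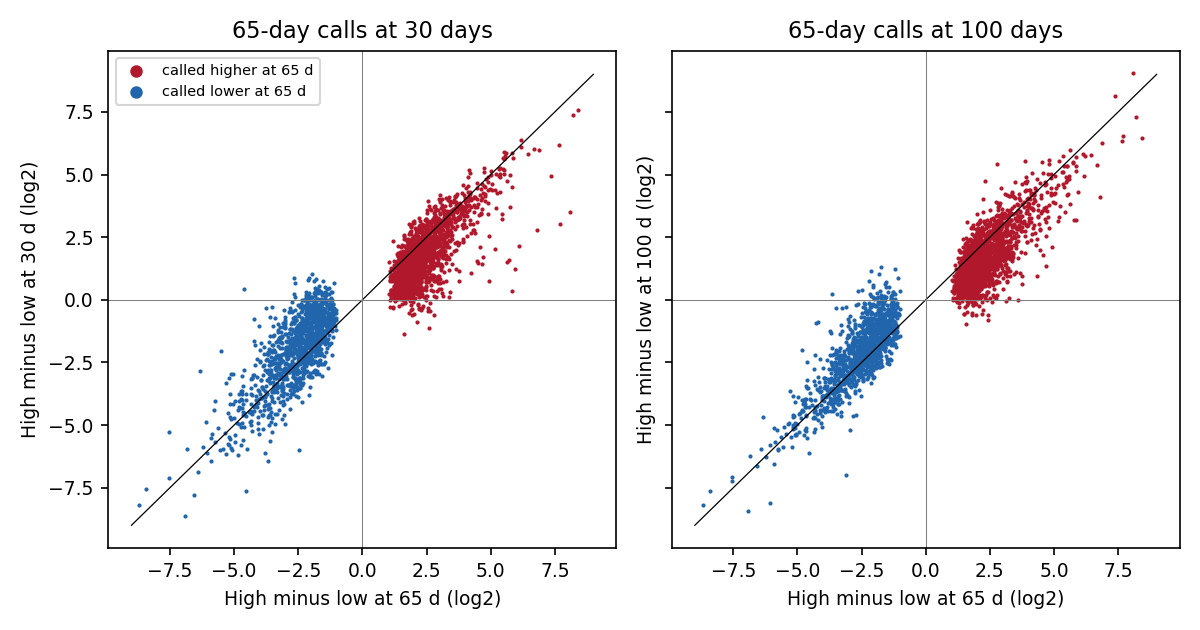
Cultivar difference (high-starch minus low-starch, log2) at 30 days (left) and at 100 days (right) against that at 65 days, with 1 point per unigene called at 65 days and a line of equal difference. Nearly all of the 1765 higher and 1217 lower unigenes keep their side of 0 at the other ages, with medians of 1.64 and 1.62 for the higher ones against 2.18 at 65 days.

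Whether any difference was particular to 65 days was tested with a contrast of the 65-day difference against the mean of the differences at 30 and 100 days. It called 0 unigenes (limma, smallest adjusted p = 0.97), and 1195 of the 26700 (4.48%) had an unadjusted p under 0.05. The SE of this contrast had a median of 0.65 (log2). At 65 days alone, and at neither other age, 651 unigenes were called higher and 375 lower. Of these, 590 and 297 had the same sign at both other ages. For the higher ones the medians were 0.89 at 30 days, 1.89 at 65 days and 0.94 at 100 days. For the lower ones they were 0.73, 1.90 and 0.94. Singly, 58.1% of all 26700 were higher at 30 days and 57.0% at 100 days, and 41.8% and 43.0% were lower. No share of all 26700 over both ages together was taken. Of the 651 and 375, 189 and 129 had an unadjusted p under 0.05 in the contrast, and none passed adjustment. Choosing unigenes called at 65 days alone favours a small p in this contrast, so these 2 counts are a description only.

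Over 3 libraries the spread was wider among high-starch libraries, but this rested on replicate 1. The median SD over 3 libraries was 0.63 (log2) among high-starch and 0.57 among low-starch libraries over the 26700 unigenes. Among the 11863 unigenes with a mean of 10 FPKM or more, it was 0.61 and 0.49. A range of at least 4-fold within the group was seen for 19.5% of those 11863 in high-starch roots and for 10.3% in low-starch roots. Between pairs of libraries, the median log2 difference over the 11863 was 0.87 and 0.82 for high-starch replicate 1 with replicates 2 and 3, and 0.46 for high-starch replicates 2 and 3, against 0.53 to 0.59 for the 3 low-starch pairs. Without replicate 1, the high-starch pair therefore lay closer together than any low-starch pair.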

How the data were processed

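The authors deposited 1 table of FPKM values for 46840 unigenes and 18 libraries, per the file headers, and each column matched 1 library by its title. Per the labels' protocols, RNA was extracted with Trizol, cleared of DNA and made into TruSeq stranded mRNA libraries. edgeR is named, without its use or version, per the submitters' processing notes. The assembler, aligner, counter and scaling were not given in the sources used here. Count models were not applied to FPKM values, and a change of a low unigene is understated on log2(FPKM + 1). FPKM sums ran from 731156 to 1471677 per library.

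Relative depth came from the modal ratio of low FPKM values (at least 0.2, in unigenes above 0 in at most 9 libraries) between libraries. Of 153 library pairs, 99.3% lay within 0.05 (log2) of the fitted values. Because absolute depth is unknown, floors and counting intervals are left out.

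limma 3.58.1 (R 4.3.3) was fitted to log2(FPKM + 1) with 6 groups of 3, an eBayes trend and 12 residual degrees of freedom, and tested on simulated data. Single library measures used exact permutation (SciPy 1.17.1). Named were the called unigenes, separated between cultivars and averaging 10 FPKM or more in the cultivar where they were higher, with the largest difference and with the highest level in each direction. The unigenes, lists and tests were chosen with earlier results of these data known. Deviations from the group mean of libraries with the same replicate number in the 2 cultivars at 65 days had r = 0.336, 0.400 and 0.102 over 32529 unigenes. The numbers were therefore used as a possible pairing, in a replicate block among the alternatives and in the permutation within pairs. The main fit and its calls have no replicate term, and the other permutations are unpaired. This pairing comes from the data, since the labels give no shared plant, batch or day, and the third value is close to the limit of 0.1. Alternatives were other pseudocounts, filters, scalings and weights, depth as a covariate, a replicate block, a fit of 6 libraries and leaving out each library of 65 days. Leaving out 2 libraries together, ranking the most abundant unigenes without them and the spread by pairs of libraries were added after seeing the data.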

Additional observations from a re-analysis of the deposited data

How the results depend on the processing

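The calls at 65 days were 1765 higher and 1217 lower. Under quantile normalization they were 1579 and 1429, so that 52.5% of calls were higher, against 59.2%. With a filter at 5 FPKM, under which fewer unigenes were tested, they were 1147 and 979. Leaving out 1 library of 65 days gave 1185 to 1584 higher and 747 to 1190 lower calls, and the lower count moved by over 1.5 times without low-starch replicate 3. Without that library and high-starch replicate 1 the calls were 1060 and 757, for which the cause was not tested beyond the smaller number of libraries. With a replicate block the calls were 1869 and 1335 in the fit of 18 libraries and 1711 and 1263 in the fit of 6, and in the fit of 6 the adjusted p of Iba_26813 (limma) was 0.032 with the block and 0.11 without it. The pairing changed no other named call. The contrast of 65 days with the other ages called 0 unigenes, and 1 with no filter. The share of higher calls at 50 FPKM and over, 44.2%, turned to 56.1% with relative depth as a covariate and ran from 33.6% to 55.3% with 1 library left out, or 33.3% with the same pair left out, and the cause was not tested. The listings at 0 of 664 and 363 unigenes fell to 103 and 91 at a minimum of 5 FPKM, by construction. The counts of 65-day calls separated the same way at 30 or 100 days stayed within 1.5 times in the 7 settings tried for each. Depth is known only between libraries, so small levels cannot be told from 0.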
